A study of Mus musculus with 8 samples.

Results

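The comparison is between ILC1/3P and CLP, 2 populations of lymphoid progenitors sorted from the fetal liver of untreated wild-type B6 mice and profiled by bulk RNA-seq. It uses 5 of the 8 libraries of the series, 3 of CLP and 2 of ILC1/3P, and 12362 of the 34745 genes in the deposited table, those with enough counts to be tested when these 5 libraries are scaled and fitted on their own. Cells of both gates were live, lineage-negative, CD45+, CD127+ and CD25–. CLP were Flt3+, and ILC1/3P were Flt3–, α4β7+, PD-1– and CD94+. Sorted purity was given as over 90%, and cDNA was made in the cell lysate with a SMARTer kit and amplified by PCR. An age of 6 to 8 weeks is among the labels too, although the tissue is fetal. All libraries have 1 batch date. Whether the libraries of a group came from different animals is not said, and the p-values therefore reflect variation among libraries that could be purely technical.

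The common lymphoid progenitor, usually shortened to CLP, is a blood-forming cell that gives rise to B cells, T cells, natural killer cells and other innate lymphoid cells. Innate lymphoid cells are lymphocytes without rearranged antigen receptors that settle in tissues early in life, and those of groups 1 and 3 are best known for interferon gamma and interleukin 22. Receptors, transcription factors and effector molecules of these lineages are the usual description of such cells. The genes described here lie mostly outside those lineage lists: calcium-binding proteins, lectins, lysosomal enzymes, receptors for peptides and nucleotides, transporters, phosphatases and zinc finger factors.

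Of the 12362 genes tested, 1539 had higher and 1494 lower counts in ILC1/3P than in CLP at an adjusted p under 0.05 (edgeR quasi-likelihood test, Benjamini-Hochberg adjustment over all genes tested, two-sided). That is 24.5% of the genes, 12.4% higher and 12.1% lower. Genes of the lineage and sort lists made up 254 of those tested and 65.7% of them were called, against 23.7% of the other 12108. The libraries of the 2 groups did not overlap for 55.7% of all genes tested, 25.3% higher and 30.4% lower in ILC1/3P. Total counts were 4991939 to 7167619 per CLP library and 6310739 to 8082476 per ILC1/3P library. Correlations of log2 CPM (counts per 1000000 of the scaled library) were 0.879 to 0.887 within CLP, 0.851 between the ILC1/3P libraries and 0.622 to 0.679 between groups.

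The split between higher and lower genes depends on scaling. The 50 most abundant genes took 24.8 to 29.2% of the counts in ILC1/3P and 12.9 to 16% in CLP, and the TMM factors, which compensate for this, were 0.695 to 0.796 and 1.18 to 1.30. With library size as the only scaling, 857 genes were higher and 2761 lower, so that 23.7% of the calls were higher in place of 50.7%, and the median log2 fold change of all genes moved from -0.21 to -0.92. Leaving out CLP replicate 1 or CLP replicate 2 reduced the lower genes to 811 and 873. Fold changes below are on the TMM scale. Of all genes called, 632 higher and 536 lower genes were called in the same direction under each of 15 alternative settings that gave a value. Except for Itgb7, Cpa3 and Vim, the genes given below with a fold change, a ratio or a bound are among these. They were mostly named for a small p or a large difference in these same libraries, which favours such stability.

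The gate genes Flt3, Klrd1 and Itgb7 followed their gates. The list of genes of the gate proteins had 7 tested members, 3 called higher and 3 lower (85.7% called, against 24.5% of all genes). Whether its other members followed the gates is not described here. Flt3, the receptor tyrosine kinase that defines the CLP gate, was at 542, 372 and 375 CPM in the CLP libraries and 0 and 0 CPM in the ILC1/3P libraries. Klrd1, which encodes CD94, was at 47.8, 37.9 and 60.3 CPM in the CLP libraries and 1121 and 1574 CPM in the ILC1/3P libraries. Itgb7, the β7 integrin chain, was at 7.87, 0.683 and 2.59 CPM in the CLP libraries and 37.1 and 63.7 CPM in the ILC1/3P libraries. None of the 3 overlapped between groups, and the log2 fold changes were 4.79 ± 0.32 (SE) for Klrd1 (adjusted p = 8.15e-05) and 3.73 ± 0.86 (SE) for Itgb7 (adjusted p = 0.015). Flt3 was at least 1596-fold lower in ILC1/3P, where it had no count, with absence set to a floor of 3 counts pooled over the group (adjusted p = 5.26e-05). Without CLP replicate 3 the Itgb7 call was lost at an adjusted p of 0.0507. These genes chose the cells, so they describe the sort. In bulk RNA, fewer cells of a type and less RNA per cell cannot be told apart.

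**Figure D1:**
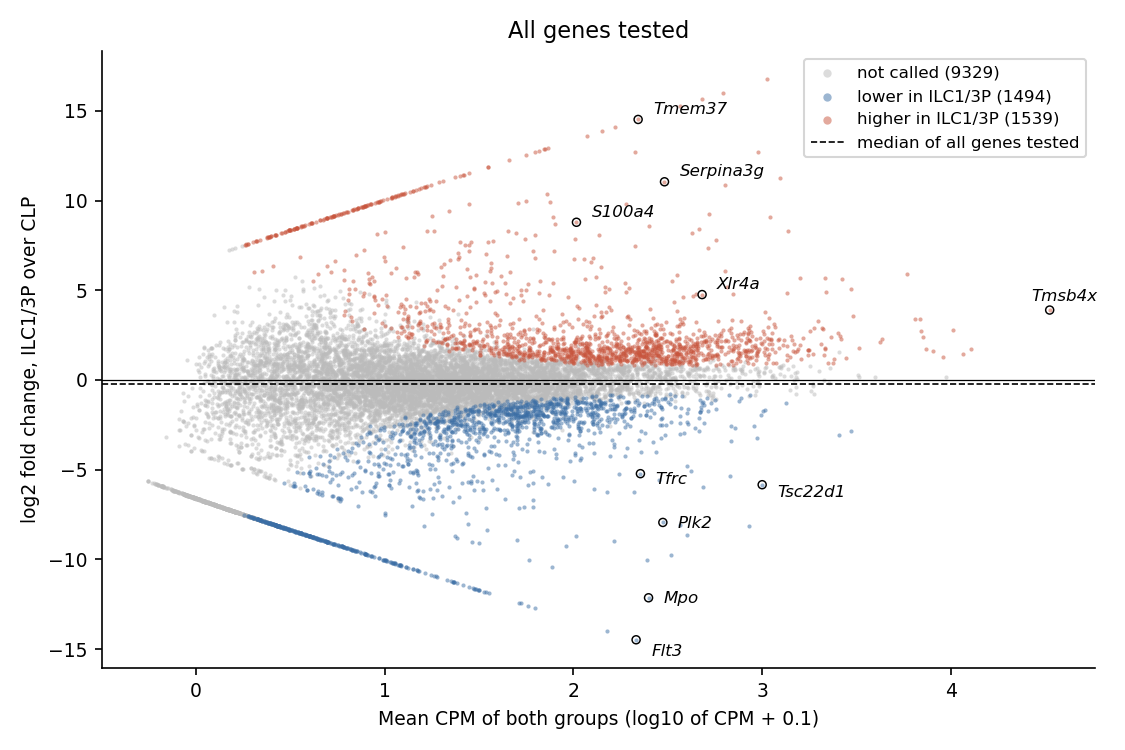
Log2 fold change of ILC1/3P over CLP against mean CPM for the 12362 genes tested, each point 1 gene. The 1539 higher genes are red, the 1494 lower genes blue and the dashed line is the median of all genes at -0.21. The straight diagonal rows at the top and bottom are genes with no count in 1 group, whose fitted fold changes are not bounds.

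Several genes outside the lineage lists were read in ILC1/3P and had no count at all in CLP. Tmem37, which encodes a transmembrane protein related to calcium channel gamma subunits, lies at chr1:120067377-120074074 (mm10) and was at 0, 0 and 0 CPM in the CLP libraries and 448 and 432 CPM in the ILC1/3P libraries. Both ILC1/3P libraries were close to each other and no CLP library had a read, which makes the gene at least 3309.8-fold higher (adjusted p = 4.4e-05). Tnfrsf9, the costimulatory receptor CD137, was at 93.2 and 156 CPM in ILC1/3P and 0 in CLP, at least 888-fold higher. Tmsb15a, a thymosin that binds actin monomers, was at 35.5 and 105 CPM against 0, at least 478-fold higher. These counts differed between the ILC1/3P libraries by more than those of Tmem37, but each was far above an empty group.

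The same pattern held for a G protein-coupled receptor, a neuropeptide, a transporter and an exchange factor. Gpr15, a receptor known for guiding T cells to the large intestine, was at 82.7 and 21.5 CPM in ILC1/3P (at least 433-fold higher, adjusted p = 0.00153). Gal, the precursor of the neuropeptide galanin, was at 14.8 and 66.7 CPM (at least 268-fold higher, adjusted p = 0.00228). Slc38a4, a sodium-coupled amino acid transporter, was at 41.4 and 20.6 CPM (at least 247-fold higher, adjusted p = 0.00171). In every one of these 3 genes the CLP libraries had 0 counts and one ILC1/3P library was at least 2 times the other. Dock5, an exchange factor for the GTPase Rac, was at 27.7 and 21.5 CPM (at least 189-fold higher, adjusted p = 0.00206), and here the ILC1/3P libraries were close. Npas2, a clock transcription factor, was at 14.9 and 18.0 CPM (at least 121-fold higher, adjusted p = 0.00457), while the clock repressor gene Ciart was measured in both groups and was higher by 3.02 ± 0.51 (SE) on the log2 scale (adjusted p = 0.0038).

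**Figure D2:**
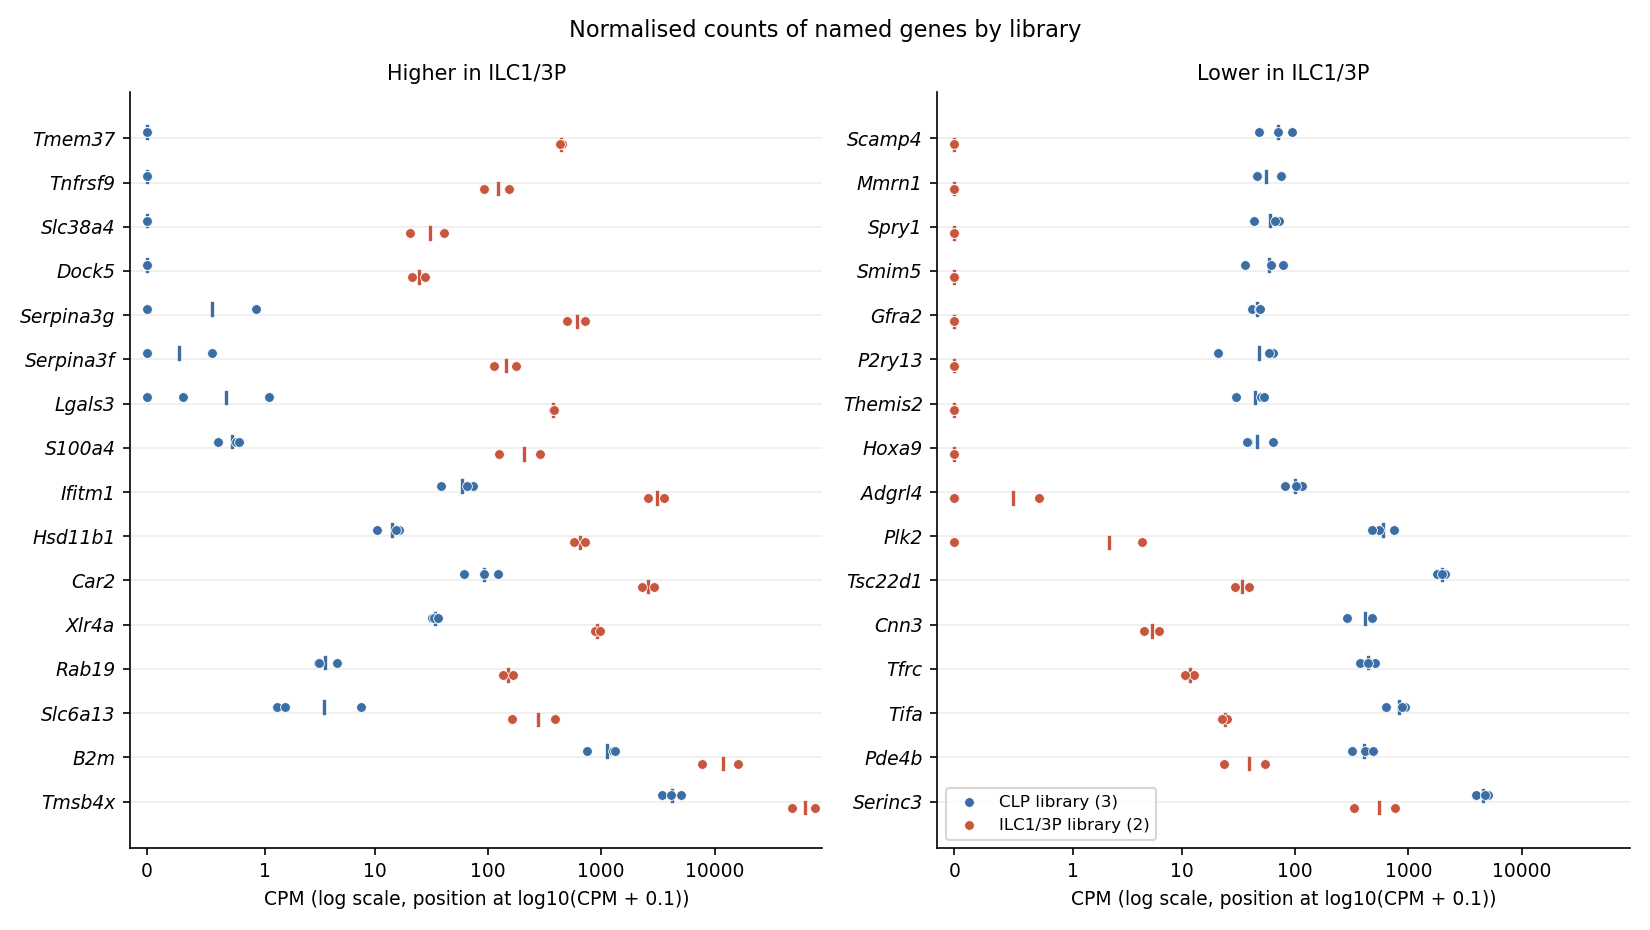
CPM of 16 higher and 16 lower genes in each library on a log scale. Points are libraries (blue, 3 CLP, red, 2 ILC1/3P) and short bars are group means. In none of the 32 genes do the libraries of the groups overlap, which the choice of genes required or favoured. Of all genes tested, 55.7% were without overlap.

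A pair of neighbouring serine protease inhibitor genes on chromosome 12 was high in ILC1/3P and nearly absent from CLP. Serpina3g, at chr12:104236245-104241939, was at 0, 0 and 0.818 CPM in the CLP libraries and 715 and 499 CPM in the ILC1/3P libraries (log2 fold change 11.04 ± 0.78 (SE), adjusted p = 9.68e-05). Serpina3f, at chr12:104214544-104221129, was at 0, 0 and 0.273 CPM in the CLP libraries and 176 and 113 CPM in the ILC1/3P libraries. CLP replicate 3 alone had reads of either gene, and only a few, and pooled counts of Serpina3f were 1693-fold (95% counting interval 468 to 13995) higher in ILC1/3P. The coding parts of this family are similar, so reads may be split between its members. The 250 bases before the RefSeq start of both genes (GRCm38.p6, plus strand, chr12:104235897-104236146 for Serpina3g and chr12:104214294-104214543 for Serpina3f) are shown because the 2 genes moved together and are the only ones here compared at the sequence level. Capitals mark a match to TTCNNNGAA, the palindromic GAS element known for binding STAT factors.
Serpina3g: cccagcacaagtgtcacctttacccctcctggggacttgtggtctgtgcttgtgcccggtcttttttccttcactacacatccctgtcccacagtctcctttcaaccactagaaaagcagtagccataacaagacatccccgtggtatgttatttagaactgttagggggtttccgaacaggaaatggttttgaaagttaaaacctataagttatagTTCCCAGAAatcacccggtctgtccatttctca
Serpina3f: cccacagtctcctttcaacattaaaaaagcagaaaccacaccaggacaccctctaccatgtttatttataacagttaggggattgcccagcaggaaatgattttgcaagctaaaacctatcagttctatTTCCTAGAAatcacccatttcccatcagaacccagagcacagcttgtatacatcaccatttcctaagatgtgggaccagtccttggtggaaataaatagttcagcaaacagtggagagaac
The match begins 33 bases before the start in Serpina3g and 121 bases before it in Serpina3f. Around it, 65 of 84 bases are identical without gaps. RefSeq lists another Serpina3f start farther downstream, whose window of the same length holds the same match. In windows of this length, on either strand, GAS is found in 7.02% of all 32851 RefSeq promoters, in 6.02% of those of tested genes, in 6.81% of those of higher genes and in 6.61% of those of lower genes. TCACACCT, a core of T-box sites, is in 1.12% of all promoters, in 0.788% of those of tested genes and in neither window shown. Such a match is a description of letters and shows no binding.

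Among genes with at least 10 counts in each of the 5 libraries, the following were chosen by the smallest p among higher genes outside the lineage and sort lists. Xlr4a, an X-linked lymphocyte-regulated gene at chrX:73074345-73082478, was at 32.4, 33.6 and 36.7 CPM in the CLP libraries and 879 and 974 CPM in the ILC1/3P libraries (log2 fold change 4.76 ± 0.26 (SE), adjusted p = 4.11e-05). Its neighbours Xlr4b (4.61 ± 0.36 (SE), adjusted p = 0.000147) and Xlr4c (5.12 ± 0.39 (SE), adjusted p = 0.000136), added after their values were seen, were also higher, and as near-identical copies these 3 genes may share reads. Ifitm1, an interferon-induced membrane protein, was at 39.1, 74.6 and 65.4 CPM in the CLP libraries and 2598 and 3610.4 CPM in the ILC1/3P libraries (log2 fold change 5.70 ± 0.37 (SE), adjusted p = 7.52e-05). Hsd11b1, the enzyme that regenerates active glucocorticoid inside cells, was at 16.6, 15.5 and 10.5 CPM in the CLP libraries and 576 and 724 CPM in the ILC1/3P libraries (log2 fold change 5.51 ± 0.32 (SE), adjusted p = 4.4e-05). All CLP libraries lay far below both ILC1/3P libraries in each case. Car2, a carbonic anhydrase abundant in red cells, was at 61.2, 92.0 and 123 CPM in the CLP libraries and 2288 and 2930.4 CPM in the ILC1/3P libraries (log2 fold change 4.83 ± 0.36 (SE), adjusted p = 0.000116), and Rab19, a GTPase of vesicle traffic, at 4.63, 3.07 and 3.14 CPM in the CLP libraries and 137 and 167 CPM in the ILC1/3P libraries (log2 fold change 5.38 ± 0.39 (SE), adjusted p = 9.68e-05). Replicates of a group differed little for these genes beside the gap between groups, which choosing genes by the smallest p favours.

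Genes that were well measured in CLP and had no count in ILC1/3P were as varied. Mmrn1, a platelet and endothelial adhesive protein, was at 45.8, 74.8 and 46.1 CPM in CLP (at least 192-fold lower, adjusted p = 0.000442). Gfra2, the co-receptor for the growth factor neurturin, was at 41.7, 48.7 and 48.9 CPM (at least 165-fold lower, adjusted p = 0.00041). P2ry13, a receptor for ADP, was at 20.8, 64.5 and 59.4 CPM (at least 161-fold lower, adjusted p = 0.00123). CLP replicate 1 was lowest for P2ry13, and the CLP libraries were closer together for the other 2. Themis2, a signalling adaptor of B cells and macrophages, was at 50.1, 53.6 and 30.1 CPM (at least 160.2-fold lower), Smim5, a small membrane protein, at 61.6, 36.4 and 78.5 CPM (at least 218-fold lower), and Scamp4, a secretory carrier protein, at 94.9, 48.0 and 71.3 CPM (at least 270.0-fold lower). Adjusted p-values for these 3 were 0.000655, 0.000528 and 0.000343.

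The most sharply lower genes still measured in all libraries included a regulator of transcription, an iron receptor and a cytoskeletal protein. Tsc22d1, a leucine zipper protein induced by transforming growth factor β, was at 2119, 1782 and 1995 CPM in the CLP libraries and 29.3 and 39.5 CPM in the ILC1/3P libraries (log2 fold change -5.84 ± 0.34 (SE), adjusted p = 4.4e-05). Tfrc, the transferrin receptor, was at 375, 511 and 438 CPM in the CLP libraries and 12.8 and 10.7 CPM in the ILC1/3P libraries (log2 fold change -5.22 ± 0.34 (SE), adjusted p = 6.69e-05). Cnn3, an actin-binding calponin, was at 481, 478 and 285 CPM in the CLP libraries and 6.23 and 4.57 CPM in the ILC1/3P libraries (log2 fold change -6.25 ± 0.43 (SE), adjusted p = 8.72e-05). The lowest CLP library was more than 20 times the highest ILC1/3P library for each of the 3. Tifa, an adaptor of TRAF signalling, was at 639, 940.4 and 877 CPM in the CLP libraries and 25.2 and 22.6 CPM in the ILC1/3P libraries (log2 fold change -5.09 ± 0.34 (SE), adjusted p = 8.15e-05). Kmo, which acts on kynurenine in the breakdown of tryptophan, and Idh2, the mitochondrial NADP-linked isocitrate dehydrogenase, were lower, with log2 fold changes of -5.29 ± 0.44 (SE) and -3.77 ± 0.30 (SE) and adjusted p-values of 0.000163 and 0.000153.

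The next genes were chosen by the largest differences in mean CPM outside the lineage lists, apart from Actb, which was added after its values were seen. Tmsb4x, thymosin β4, was at 3457, 4137 and 5004 CPM in the CLP libraries and 47751 and 77202 CPM in the ILC1/3P libraries (log2 fold change 3.90 ± 0.34 (SE), adjusted p = 0.000243). It was the top gene of both ILC1/3P libraries, with 3.80 and 5.36% of their counts, and on the length-adjusted FPKM scale its mean was 21789 ± 5257 FPKM (SD, n = 2) in ILC1/3P and 2419 ± 354 FPKM (SD, n = 3) in CLP. Pfn1, profilin, was at 2249.7, 2805 and 2746 CPM in the CLP libraries and 12854 and 23070.4 CPM in the ILC1/3P libraries (log2 fold change 2.79 ± 0.33 (SE), adjusted p = 0.000844), and Actb, β-actin, at 248, 257 and 227 CPM in the CLP libraries and 877 and 954 CPM in the ILC1/3P libraries (log2 fold change 1.91 ± 0.24 (SE), adjusted p = 0.00104). These 3 genes were thus higher together in both ILC1/3P libraries. B2m, the light chain of MHC class I, was at 757, 1271 and 1331 CPM in the CLP libraries and 7757 and 15955 CPM in the ILC1/3P libraries (log2 fold change 3.40 ± 0.40 (SE), adjusted p = 0.000844). Sub1, a transcriptional coactivator, and Calm2, a calmodulin gene, were higher by 2.75 ± 0.32 (SE) and 2.42 ± 0.29 (SE) on the log2 scale, with adjusted p-values of 0.000792 and 0.000881. In the other direction, Serinc3, a multipass membrane protein that restricts retroviruses, was at 3917, 4979.9 and 4709.7 CPM in the CLP libraries and 759 and 332 CPM in the ILC1/3P libraries (log2 fold change -3.06 ± 0.41 (SE), adjusted p = 0.0015), and Plac8, a small cysteine-rich protein of myeloid and lymphoid cells, at 979, 1915 and 2184 CPM in the CLP libraries and 129 and 228 CPM in the ILC1/3P libraries (log2 fold change -3.24 ± 0.45 (SE), adjusted p = 0.00171). Bzw1, a regulator of translation start sites, was lower (log2 fold change -1.70 ± 0.29 (SE), adjusted p = 0.00407).

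Of the small calcium-binding S100 proteins and their annexin partners, more were called higher than lower. In this list 7 of 14 tested members were higher and 2 lower, or 50% and 14.3% against 12.4% and 12.1% of all genes, and the median log2 fold change of the list was 2.27 against -0.21. The counts were the same with library size as the only scaling. S100a4, a metastasis-associated member expressed by motile cells, was at 0.323, 0.512 and 0.545 CPM in the CLP libraries and 127 and 287 CPM in the ILC1/3P libraries (log2 fold change 8.79 ± 0.55 (SE), adjusted p = 6.01e-05). S100a6 was at 1.19, 3.93 and 8.86 CPM in the CLP libraries and 157 and 295 CPM in the ILC1/3P libraries (log2 fold change 5.61 ± 0.72 (SE), adjusted p = 0.00123), and Anxa2, a membrane-binding annexin, at 4.42, 5.12 and 19.0 CPM in the CLP libraries and 304 and 262 CPM in the ILC1/3P libraries (log2 fold change 4.89 ± 0.62 (SE), adjusted p = 0.00118). All 3 were below 20 CPM in every CLP library and above 100 CPM in both ILC1/3P libraries. S100a10, the partner of Anxa2, was at 193, 254 and 282 CPM in the CLP libraries and 1145 and 1740.1 CPM in the ILC1/3P libraries (log2 fold change 2.57 ± 0.30 (SE), adjusted p = 0.000792). S100a13, S100a1 and S100a11 were higher by 2.80 ± 0.32 (SE), 2.72 ± 0.39 (SE) and 2.31 ± 0.41 (SE) on the log2 scale. Of these 6 S100 genes, S100a1, S100a13, S100a4 and S100a6 lie between chr3:90511034-90624181 and S100a11 and S100a10 between chr3:93520488-93564643. The 2 lower annexins were not called without CLP replicate 2.

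Galectins, which bind β-galactosides on glycoproteins, changed in opposite directions. In the list of galectins and other lectins, 2 of 19 tested members were higher and 6 lower (10.5% and 31.6%, against 12.4% and 12.1% of all genes), with a median log2 fold change of -2.20 and the same counts when library size was the only scaling. Lgals3 was at 0.108, 0 and 1.09 CPM in the CLP libraries and 373 and 387 CPM in the ILC1/3P libraries (log2 fold change 9.82 ± 0.72 (SE), adjusted p = 0.000113). Lgals1 was at 564, 792 and 1025 CPM in the CLP libraries and 4892 and 3899 CPM in the ILC1/3P libraries (log2 fold change 2.47 ± 0.31 (SE), adjusted p = 0.00122), whereas Lgals9 was at 1109, 1693 and 1840.1 CPM in the CLP libraries and 307 and 210.3 CPM in the ILC1/3P libraries (log2 fold change -2.58 ± 0.35 (SE), adjusted p = 0.00146). Thus Lgals3 was nearly absent from CLP, Lgals1 was abundant in both groups and more so in ILC1/3P, and Lgals9 was higher in CLP. Lgals8 was also lower (-2.20 ± 0.38 (SE)), as was Clec12a, an inhibitory C-type lectin of myeloid cells (-2.97 ± 0.46 (SE)), with adjusted p-values of 0.00451 and 0.00257.

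Of glycosyltransferases and related glycan enzymes, 4 of 55 tested members were higher and 8 lower (7.27% and 14.5%, against 12.4% and 12.1% of all genes), and without CLP replicate 1 these were 2 and 5. With library size only 2 were higher and 14 lower. B3gnt2, which extends polylactosamine chains, was at 171, 110.3 and 79.1 CPM in the CLP libraries and 0.778 and 1.6 CPM in the ILC1/3P libraries (log2 fold change -6.69 ± 0.61 (SE), adjusted p = 0.000278). Chst11, a chondroitin sulfotransferase, was at 0.216, 0 and 0 CPM in the CLP libraries and 39.4 and 27.2 CPM in the ILC1/3P libraries, a pooled ratio of 387-fold (95% counting interval 106 to 3207). B3gnt2 was thus read mainly in CLP and Chst11 mainly in ILC1/3P. St8sia4, a polysialyltransferase, was lower (log2 fold change -2.41 ± 0.35 (SE), adjusted p = 0.0019).

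Tetraspanins, membrane organisers that pass the membrane 4 times, were called in both directions. Here 4 of 18 tested members were higher and 9 lower (22.2% and 50%, against 12.4% and 12.1% of all genes; 4 and 11 with library size only), and the list median was -1.09. Cd63, found on lysosomes and secretory granules, was at 12.3, 14.5 and 10.9 CPM in the CLP libraries and 127 and 277 CPM in the ILC1/3P libraries (log2 fold change 4.01 ± 0.41 (SE), adjusted p = 0.000459). Cd9 was at 60.6, 103 and 77.2 CPM in the CLP libraries and 371 and 546 CPM in the ILC1/3P libraries (log2 fold change 2.52 ± 0.32 (SE), adjusted p = 0.00117), and Cd82 at 11.1, 29.4 and 18.0 CPM in the CLP libraries and 102 and 175 CPM in the ILC1/3P libraries (log2 fold change 2.84 ± 0.47 (SE), adjusted p = 0.00356). Each of the 3 was higher in both ILC1/3P libraries than in every CLP library. Cd81 was at 803, 889 and 782 CPM in the CLP libraries and 197 and 117 CPM in the ILC1/3P libraries (log2 fold change -2.39 ± 0.32 (SE), adjusted p = 0.00137). Tspan13 was at 1370.5, 1703 and 1639.7 CPM in the CLP libraries and 425 and 370.4 CPM in the ILC1/3P libraries (log2 fold change -1.98 ± 0.27 (SE), adjusted p = 0.00149), and Tspan3 was lower (log2 fold change -2.35 ± 0.29 (SE), adjusted p = 0.00102).

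The lysosomal hydrolases that were called were lower, and subunits of the proton pump went both ways. Of the list, 4 of 50 tested members were higher and 18 lower, which is 8% and 36% against 12.4% and 12.1% of all genes, with a median of -1.02. Lgmn, the asparaginyl protease legumain, was at 178, 234 and 139.6 CPM in the CLP libraries and 8.1 and 7.77 CPM in the ILC1/3P libraries (log2 fold change -4.53 ± 0.39 (SE), adjusted p = 0.00023). Ctsh, cathepsin H, was at 37.8, 28.0 and 36.5 CPM in the CLP libraries and 0.156 and 0.914 CPM in the ILC1/3P libraries (log2 fold change -6.06 ± 0.86 (SE), adjusted p = 0.00175), and Ctsb, cathepsin B, at 768, 492 and 596 CPM in the CLP libraries and 143 and 90.2 CPM in the ILC1/3P libraries (log2 fold change -2.41 ± 0.34 (SE), adjusted p = 0.00174). All 3 proteases were lower in both ILC1/3P libraries than in any CLP library. Ctsa, Hexa, Lipa, Tpp1 and the lysosomal membrane protein gene Laptm5 were lower, with log2 fold changes of -2.30 ± 0.31 (SE), -3.03 ± 0.44 (SE), -2.48 ± 0.50 (SE), -2.18 ± 0.45 (SE) and -2.0 ± 0.33 (SE). Atp6v0e and Atp6v1f, which encode subunits of the vacuolar proton pump, were at 1719.7 and 1901 CPM and 1259 and 1632 CPM in ILC1/3P and higher by 2.02 ± 0.29 (SE) and 1.94 ± 0.31 (SE). Of the other pump subunits called, Atp6v1g1 was higher and Atp6v1h, Atp6v0a1 and Atp6v1b2 were lower. The lower count fell to 11 without CLP replicate 1, and it was 28 with library size only. The summed level of myeloid cell markers was lower too, at 681 to 890 CPM in CLP and 93.4 to 101 CPM in ILC1/3P. Of 11 tested markers, 0 were higher and 3 lower by edgeR (27.3% called, against 24.5% of all genes). The part of these markers in the result was not tested. At an unadjusted p under 0.05, 0 of these 11 markers were higher and 5 lower, DESeq2 called 0 higher and 4 lower, and limma-voom 0 and 3.

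**Figure D3:**
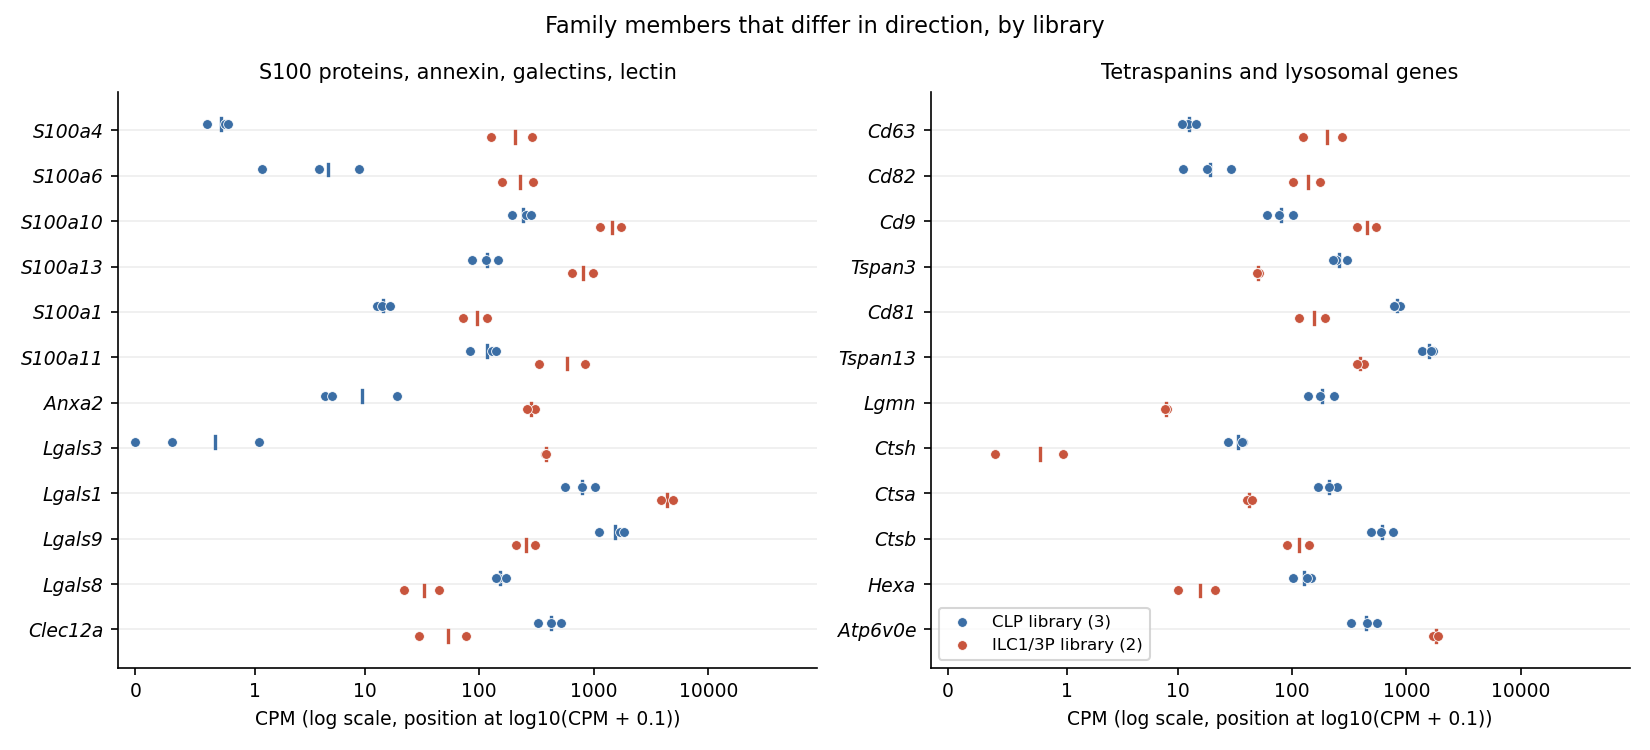
CPM per library on a log scale for S100 proteins, an annexin, galectins and a lectin (left) and for tetraspanins and lysosomal genes (right). Points are libraries and short bars group means, blue for CLP and red for ILC1/3P. Lgals3 and Lgals1 lie to the right in ILC1/3P and Lgals9 and Lgals8 to the left, as do Cd63, Cd82 and Cd9 against Tspan3, Cd81 and Tspan13.

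Receptors coupled to G proteins split evenly. Among receptors for nucleotides, lipids and proteases, orphan receptors and adhesion receptors, 9 of 44 tested members were higher and 9 lower (20.5% and 20.5%, against 12.4% and 12.1% of all genes; 7 and 10 with library size only), and 5 were lower without CLP replicate 2. The adhesion receptor genes Adgrg5, Adgrg1 and Adgrg3 are neighbours on chromosome 8, and they did not move together. Adgrg5, at chr8:94923694-94943290, was at 0, 0 and 0.954 CPM in the CLP libraries and 54.8 and 85.2 CPM in the ILC1/3P libraries (log2 fold change 7.71 ± 1.09 (SE), adjusted p = 0.00176). Adgrg1, at chr8:94977109-95014208, was at 155, 103 and 102 CPM in the CLP libraries and 2.49 and 1.83 CPM in the ILC1/3P libraries (log2 fold change -5.77 ± 0.47 (SE), adjusted p = 0.000163), and Adgrg3, at chr8:95017692-95045247, at 548, 549.9 and 569 CPM in the CLP libraries and 15.1 and 7.54 CPM in the ILC1/3P libraries (log2 fold change -5.60 ± 0.40 (SE), adjusted p = 0.000104). The first gene of the row was thus almost unread in CLP, while the other two were read at over 100 CPM in every CLP library and at under 20 CPM in ILC1/3P. Adgrl4, an adhesion receptor of endothelial cells, was at 81.7, 114 and 103 CPM in the CLP libraries and 0 and 0.457 CPM in the ILC1/3P libraries, a pooled ratio of 524-fold (95% counting interval 145 to 4333) in favour of CLP. Adgre5, which encodes CD97, was higher by 3.16 ± 0.45 (SE) (adjusted p = 0.00177).

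Receptors for soluble ligands followed. Gpr183, the receptor for oxysterols that positions lymphocytes in lymphoid tissue, was at 23.3, 9.22 and 26.9 CPM in the CLP libraries and 170.3 and 302 CPM in the ILC1/3P libraries (log2 fold change 3.57 ± 0.48 (SE), adjusted p = 0.00148). Gpr65, a proton sensor, was at 23.9, 43.2 and 22.8 CPM in the CLP libraries and 255 and 172 CPM in the ILC1/3P libraries (log2 fold change 2.84 ± 0.38 (SE), adjusted p = 0.00144). F2rl2, a protease-activated receptor, was at 39.5 and 9.14 CPM in ILC1/3P and 0 in CLP, at least 204-fold higher (adjusted p = 0.00416). Every CLP library was below both ILC1/3P libraries for these 3 receptors, and the ILC1/3P libraries differed most for F2rl2. Slc6a13, a transporter of GABA and taurine, was at 1.29, 1.54 and 7.64 CPM in the CLP libraries and 163 and 392 CPM in the ILC1/3P libraries (log2 fold change 6.30 ± 0.78 (SE), adjusted p = 0.00108). Slc43a1, an amino acid transporter, was at 20.2, 10.4 and 17.7 CPM in CLP and 0 in ILC1/3P, at least 60.6-fold lower (adjusted p = 0.0036). Sema4a, a semaphorin, was at 0, 0 and 0.136 CPM in the CLP libraries and 26.5 and 44.8 CPM in the ILC1/3P libraries, a pooled ratio of 761-fold (95% counting interval 136 to 30155).

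Downstream of such receptors, RGS proteins speed the turn-off of G proteins, and 2 of 8 tested members were higher and 1 lower (25% and 12.5%, against 12.4% and 12.1% of all genes). Rgs1 was at 168, 277 and 209 CPM in the CLP libraries and 1237 and 1733 CPM in the ILC1/3P libraries (log2 fold change 2.77 ± 0.30 (SE), adjusted p = 0.000655). Rgs2 was at 383, 531 and 547 CPM in the CLP libraries and 1169.9 and 2097 CPM in the ILC1/3P libraries (log2 fold change 1.75 ± 0.32 (SE), adjusted p = 0.00557). Rgs10 was at 66.9, 113 and 95.4 CPM in the CLP libraries and 6.23 and 2.28 CPM in the ILC1/3P libraries (log2 fold change -4.39 ± 0.56 (SE), adjusted p = 0.00125). Rgs1 and Rgs2 were thus high in both groups and higher in ILC1/3P, while Rgs10 was low in ILC1/3P. Pde4b, a phosphodiesterase that degrades cyclic AMP, was at 413, 488 and 318 CPM in the CLP libraries and 54.8 and 23.8 CPM in the ILC1/3P libraries (log2 fold change -3.36 ± 0.43 (SE), adjusted p = 0.00127).

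Phosphoinositide signalling genes were called in 1 direction only. Of 42 tested members 0 were higher and 9 lower by edgeR, which is 0% and 21.4% against 12.4% and 12.1%, with a median of -0.49. At an unadjusted p under 0.05, 2 members were higher, and DESeq2 called 2 and limma-voom 1, as did edgeR without CLP replicate 1 or ILC1/3P replicate 2. Pik3ip1, a membrane inhibitor of PI3-kinase, was at 65.1, 36.9 and 29.6 CPM in the CLP libraries and 1.71 and 1.83 CPM in the ILC1/3P libraries (log2 fold change -4.62 ± 0.65 (SE), adjusted p = 0.00171). Inpp5d, which encodes the phosphatase SHIP-1, was at 138, 85.5 and 107 CPM in the CLP libraries and 20.7 and 35.9 CPM in the ILC1/3P libraries (log2 fold change -1.97 ± 0.40 (SE), adjusted p = 0.00882). Both are known as brakes of the pathway, and each was lower in both ILC1/3P libraries. Inpp5k and Pip4k2a were lower, with log2 fold changes of -2.07 ± 0.33 (SE) and -1.78 ± 0.37 (SE) and adjusted p-values of 0.00291 and 0.00921.

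Feedback inhibitors of Ras and MAP kinase signalling and dual-specificity phosphatases were called in both directions. Spry1, a Sprouty inhibitor, was at 71.9, 43.9 and 66.3 CPM in CLP and had no count in ILC1/3P (at least 226-fold lower, adjusted p = 0.000343). Dusp6, the phosphatase of ERK, was at 226, 204 and 139 CPM in the CLP libraries and 34.9 and 18.3 CPM in the ILC1/3P libraries (log2 fold change -2.83 ± 0.41 (SE), adjusted p = 0.00197). Dusp2 was at 469, 295 and 164 CPM in the CLP libraries and 41.9 and 38.6 CPM in the ILC1/3P libraries (log2 fold change -2.94 ± 0.46 (SE), adjusted p = 0.00294). None of these overlapped between groups, as was so for 55.7% of all genes tested. In the whole list 3 of 19 tested members were higher and 3 lower (15.8% and 15.8%, against 12.4% and 12.1% of all genes). The higher members were Dusp1, Dusp11 and Dusp19, and the count of higher members was 1 without CLP replicate 1, CLP replicate 3 or ILC1/3P replicate 1 and 0 with library size only. Rasgrp1, an exchange factor that activates Ras on diacylglycerol, was at 0, 0 and 0.818 CPM in the CLP libraries and 87.3 and 92.7 CPM in the ILC1/3P libraries (log2 fold change 8.28 ± 0.99 (SE), adjusted p = 0.000937). Rassf5, an effector of Rap1, was at 287, 195 and 182 CPM in the CLP libraries and 13.7 and 25.4 CPM in the ILC1/3P libraries (log2 fold change -3.51 ± 0.41 (SE), adjusted p = 0.000881), and Arhgap15, a GTPase activator for Rac, was lower (log2 fold change -2.13 ± 0.30 (SE), adjusted p = 0.00172).

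Most homeobox and zinc finger genes that were called were lower. For homeobox genes, 0 of 21 tested members were higher and 7 lower by edgeR, or 0% and 33.3% against 12.4% and 12.1%, with a median of -2.11. At an unadjusted p under 0.05 and with DESeq2 or limma-voom, 1 member was higher. Hoxa9 and Hoxa7, neighbours in a cluster that is active in early progenitors, were at 63.6, 38.4 and 37.6 CPM and 57.0, 20.3 and 49.9 CPM in CLP and had no count in ILC1/3P (at least 175-fold and at least 162-fold lower, adjusted p = 0.000621 and 0.00122). Hhex was at 253, 214 and 233 CPM in the CLP libraries and 24.1 and 16.2 CPM in the ILC1/3P libraries (log2 fold change -3.53 ± 0.33 (SE), adjusted p = 0.000306), and Satb1, a chromatin organiser, at 154, 135 and 107 CPM in the CLP libraries and 15.3 and 27.4 CPM in the ILC1/3P libraries (log2 fold change -2.63 ± 0.40 (SE), adjusted p = 0.00238). Cux1 was lower (log2 fold change -2.11 ± 0.45 (SE), adjusted p = 0.0108). Of the zinc finger genes named Zfp, Zkscan or Zscan, 4 of 293 tested members were higher and 47 lower (1.37% and 16%, against 12.4% and 12.1% of all genes), with a median of -0.85. The lower count was between 21 and 27 without 1 of CLP replicates 1 to 3 and 27 with the transcript length offset described below, and the 4 higher ones fell to 0 without CLP replicate 1 and to 2 without ILC1/3P replicate 2. Zfp68 was at 101, 203 and 210.4 CPM in the CLP libraries and 17 and 16.4 CPM in the ILC1/3P libraries (log2 fold change -3.36 ± 0.43 (SE), adjusted p = 0.00126).

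Of genes known as targets of p53, 1 of 20 tested members were higher and 5 lower (5% and 25%, against 12.4% and 12.1% of all genes), with a median of -0.55. Without CLP replicate 1 the lower ones were 3, and with library size only 0 were higher and 6 lower. The higher gene was not called without CLP replicate 1, CLP replicate 2 or ILC1/3P replicate 2. Plk2, a kinase of centriole duplication, was at 747, 552 and 481 CPM in the CLP libraries and 4.36 and 0 CPM in the ILC1/3P libraries (log2 fold change -7.94 ± 0.91 (SE), adjusted p = 0.000792). Sesn1, a stress sensor of the mTOR pathway, was at 248, 153 and 148 CPM in the CLP libraries and 31.9 and 25.6 CPM in the ILC1/3P libraries (log2 fold change -2.67 ± 0.37 (SE), adjusted p = 0.00165), and Trp53inp1 at 109, 147 and 93.1 CPM in the CLP libraries and 9.81 and 27.4 CPM in the ILC1/3P libraries (log2 fold change -2.66 ± 0.51 (SE), adjusted p = 0.00673). Plk2 was thus among the better measured genes of CLP and was read in only 1 ILC1/3P library. The list is short, and Plk2, Sesn1 and Trp53inp1 respond to other signals as well.

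Of genes of messenger RNA decay, 11 of 62 tested members were higher and 7 lower (17.7% and 11.3%, against 12.4% and 12.1% of all genes), but with library size only 7 were higher and 17 lower, so the balance of the list depends on scaling. The exosome genes Exosc8 and Exosc7 and the Sm-like gene Lsm7 were higher by 2.21 ± 0.28 (SE), 1.80 ± 0.25 (SE) and 2.50 ± 0.34 (SE) under TMM scaling. Zfp36, which binds AU-rich elements and destabilises cytokine messages, was at 854, 730.4 and 703 CPM in the CLP libraries and 121 and 115 CPM in the ILC1/3P libraries (log2 fold change -2.69 ± 0.27 (SE), adjusted p = 0.000416). Every CLP library was above both ILC1/3P libraries, which were close to each other.

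Mitochondrial genes are given as 2 lists. For protein import and mitochondrial dynamics, 16 of 45 tested members were higher and 2 lower (35.6% and 4.44%, against 12.4% and 12.1% of all genes), but with library size only 8 were higher and 10 lower, and without any one CLP library 1 was lower. Timm17a, an inner-membrane translocase subunit, was at 137, 238 and 311 CPM in the CLP libraries and 947 and 891 CPM in the ILC1/3P libraries (log2 fold change 2.01 ± 0.34 (SE), adjusted p = 0.00423). Hspe1, the co-chaperonin of HSP60, and Tomm5, of the outer-membrane translocase, were higher by 2.01 ± 0.27 (SE) and 1.79 ± 0.31 (SE). Chchd10, a protein of the cristae, was at 347, 429 and 513 CPM in the CLP libraries and 33.2 and 19.6 CPM in the ILC1/3P libraries (log2 fold change -4.02 ± 0.37 (SE), adjusted p = 0.000306), against the direction of the list. Its annotated exons overlap those of Mmp11, a matrix metalloprotease gene at 44.9, 29.7 and 36.5 CPM in CLP and 0 in ILC1/3P (at least 138-fold lower), and with no strand given reads of the 2 genes cannot be told apart. For mitochondrial solute carriers, 1 of 36 tested members were higher and 7 lower (2.78% and 19.4%, against 12.4% and 12.1% of all genes), 1 and 10 with library size only, and the lower ones were 3 without CLP replicate 1, 4 without CLP replicate 2 and 11 without ILC1/3P replicate 1. Slc25a5, an ADP/ATP exchanger, was higher (2.10 ± 0.29 (SE)), while Slc25a1, the citrate carrier, Slc25a53 and the uncoupling protein gene Ucp2 were lower (-3.03 ± 0.40 (SE), -4.02 ± 0.45 (SE) and -1.67 ± 0.32 (SE)).

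Entry into the endoplasmic reticulum showed the same dependence. In this list 15 of 52 tested members were higher and 6 lower (28.8% and 11.5%, against 12.4% and 12.1% of all genes), whereas library size alone gave 8 higher and 14 lower, and 8 were higher without CLP replicate 2. Sec11c, the catalytic subunit of signal peptidase, was at 248, 328 and 325 CPM in the CLP libraries and 1699 and 1812 CPM in the ILC1/3P libraries (log2 fold change 2.55 ± 0.26 (SE), adjusted p = 0.000411). Sec61b and Ost4, small subunits of the translocon and of oligosaccharyltransferase, were higher by 2.50 ± 0.29 (SE) and 2.32 ± 0.28 (SE). Tram1, a helper of the translocon, was at 559, 461 and 489 CPM in the CLP libraries and 96.1 and 82.4 CPM in the ILC1/3P libraries (log2 fold change -2.49 ± 0.27 (SE), adjusted p = 0.000635), so subunits of 1 pathway moved in opposite directions. Among vesicle proteins, Vamp8 was higher and Vamp3 and Stx7 were lower (1.93 ± 0.30 (SE), -1.94 ± 0.39 (SE) and -1.75 ± 0.35 (SE)).

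Single genes of iron, nucleotide, lipid and oxidant metabolism were called as well. Of 29 metal handling genes, 0 were higher and 4 lower by edgeR (0% and 13.8%, against 12.4% and 12.1% of all genes), while 2 were higher at an unadjusted p under 0.05 and with DESeq2 and 1 with limma-voom. Leaving out ILC1/3P replicate 1 gave 9 lower and 1 higher, CLP replicate 2 also 1 higher, and library size only 10 lower. Besides Tfrc, the lower members included Ireb2, an iron-sensing RNA-binding protein, at 33.4, 76.1 and 57.7 CPM in the CLP libraries and 7.47 and 7.08 CPM in the ILC1/3P libraries (log2 fold change -2.93 ± 0.53 (SE), adjusted p = 0.00519), and Slc39a7, a zinc transporter, at 16.3, 8.88 and 16.8 CPM in CLP and 0 in ILC1/3P (at least 52.2-fold lower). Among ectoenzymes and NAD enzymes 0 of 31 were higher and 11 lower by edgeR (0% and 35.5%, against 12.4% and 12.1% of all genes), and none was higher at an unadjusted p under 0.05, with DESeq2 or with limma-voom. The lower count was 7, 4 and 6 without CLP replicates 1, 2 and 3. Dpp4, the surface peptidase CD26, was at 101, 118 and 56.4 CPM in the CLP libraries and 21.5 and 14.8 CPM in the ILC1/3P libraries (log2 fold change -2.33 ± 0.45 (SE), adjusted p = 0.00713).

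Catalase, encoded by Cat, was at 296, 320.3 and 288 CPM in the CLP libraries and 15.1 and 36.5 CPM in the ILC1/3P libraries (log2 fold change -3.55 ± 0.43 (SE), adjusted p = 0.000948), whereas Txn1, thioredoxin, was at 269, 339 and 441 CPM in the CLP libraries and 1275 and 2259 CPM in the ILC1/3P libraries (log2 fold change 2.34 ± 0.33 (SE), adjusted p = 0.00183). Gclc, which makes the first step of glutathione synthesis, was higher by 2.54 ± 0.38 (SE) (adjusted p = 0.00226). In the list of glutathione and thioredoxin genes 5 of 44 tested members were higher and 4 lower (11.4% and 9.09%, against 12.4% and 12.1% of all genes), and library size only gave 2 and 8. The higher ones were 2 without CLP replicate 1, CLP replicate 2 or ILC1/3P replicate 2, and the lower ones 2 without CLP replicate 1. Phgdh, the first enzyme of serine synthesis, was lower (log2 fold change -2.36 ± 0.46 (SE)). Pla2g16, a phospholipase, was at 31.8, 13.7 and 44.2 CPM in the CLP libraries and 303 and 412 CPM in the ILC1/3P libraries (log2 fold change 3.58 ± 0.46 (SE), adjusted p = 0.00124). Agpat9, an acyltransferase of triglyceride synthesis, was at 70.5, 54.6 and 47.6 CPM in the CLP libraries and 0.156 and 0 CPM in the ILC1/3P libraries, a pooled ratio of 636-fold (95% counting interval 114 to 25138) in favour of CLP. Cers2, a ceramide synthase, was lower (log2 fold change -2.57 ± 0.37 (SE), adjusted p = 0.00183).

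Proteases and their inhibitors were more often higher than lower under TMM scaling. In this list 9 of 35 tested members were higher and 3 lower (25.7% and 8.57%, against 12.4% and 12.1% of all genes), the higher ones falling to 4 without ILC1/3P replicate 2, and library size alone gave 7 and 7. Besides the Serpina3 pair, Cstb, an inhibitor of cathepsins, was at 95.3, 131 and 151 CPM in the CLP libraries and 609 and 869.7 CPM in the ILC1/3P libraries (log2 fold change 2.55 ± 0.30 (SE), adjusted p = 0.000846). Adam17, the sheddase of tumour necrosis factor, was at 37.5, 36.5 and 25.8 CPM in the CLP libraries and 3.11 and 2.51 CPM in the ILC1/3P libraries (log2 fold change -3.55 ± 0.60 (SE), adjusted p = 0.00384). The inhibitor was thus higher and the sheddase lower in both ILC1/3P libraries. Traf4 was lower (-5.05 ± 0.79 (SE)) and Ranbp1, of the Ran transport cycle, higher (1.99 ± 0.26 (SE)), with adjusted p-values of 0.00276 and 0.00124.

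**Figure D4:**
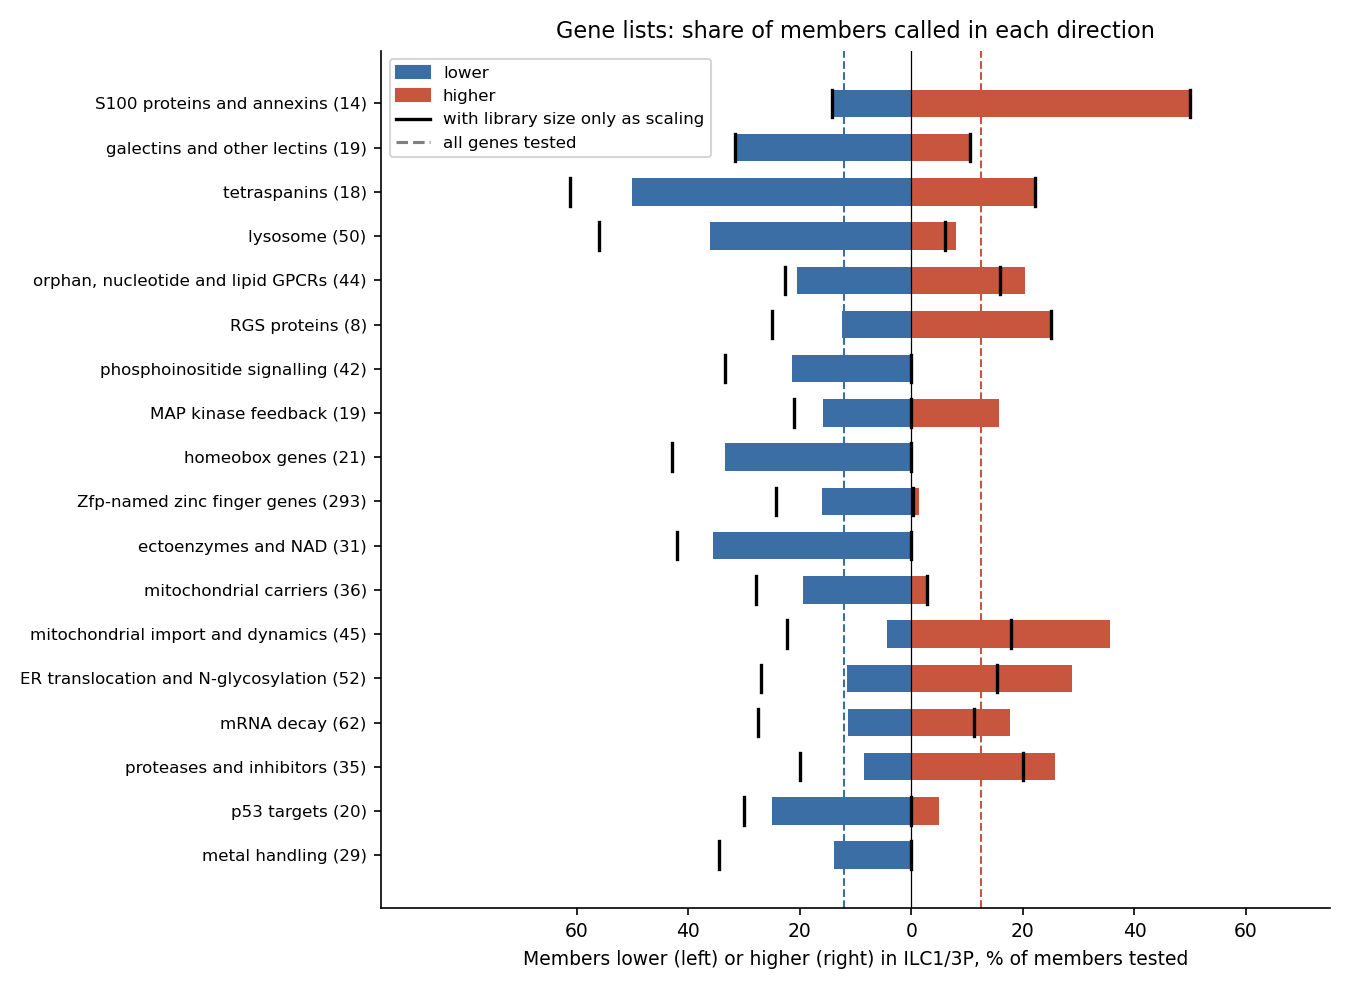
Share of tested members called lower (blue, left) or higher (red, right) in ILC1/3P for the lists described, with the number tested in brackets. The lists of glycosyltransferases, of glutathione and thioredoxin genes and of cell type markers are not drawn. Black ticks give the same share when only library size was scaled, and dashed lines are the shares over all genes, 12.1% lower and 12.4% higher. The ticks leave the S100 and galectin lists where they are and turn the balance of the import, endoplasmic reticulum and RNA decay lists. They make both sides equal in the protease and RGS lists. In the MAP kinase feedback and G protein-coupled receptor lists, equal under TMM scaling, they put more members lower than higher.

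Fold change followed transcript length across all genes. In the first decile, the shortest transcripts, up to 1035 nucleotides, the median log2 fold change was 1.09, with 454 genes higher and 65 lower of 1233. In the next decile, up to 1517 nucleotides, it was 0.46, with 322 higher and 93 lower. From the third decile to the longest it lay between -0.64 and -0.11, and lower genes were more frequent than higher ones in each of them. Several lists above consist of short genes: the median length was 1089 nucleotides for S100 proteins and annexins and 1646 for mitochondrial import, against 2848 for all genes tested. When each library's trend of log2 CPM on length was taken out, an alternative chosen after seeing the data, 1677 genes were higher and 1043 lower. The S100 and annexin list then had 9 higher and 1 lower, the import list 15 and 1, the endoplasmic reticulum list 17 and 3, the tetraspanin list 4 and 5, the p53 target list 0 and 3, and the lysosome list 3 and 11. Apart from this, the part of length in these results was not tested.

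**Figure D5:**
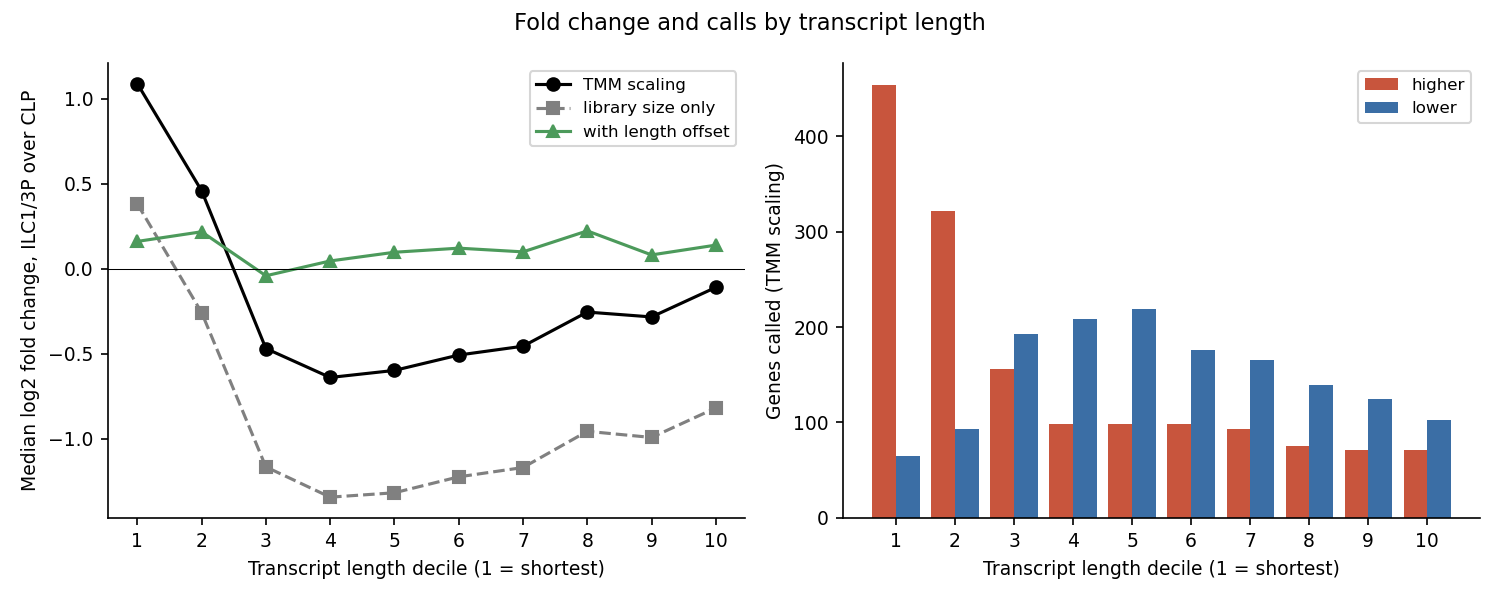
Left, median log2 fold change of ILC1/3P over CLP in deciles of length of the 12322 tested genes with a known transcript length, shortest first, with TMM scaling, with library size only and with a length offset. Right, numbers of genes higher (red) and lower (blue) in each decile. The shortest decile has 454 higher and 65 lower genes.

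Markers of other cell types differed in level from list to list. Erythroid markers summed to 81.9 to 178 CPM in CLP and 2309 to 2961 CPM in ILC1/3P, but without Car2 to 20.7 to 54.7 and 20.4 to 30.1 CPM. Of the 19 in the table, 11, among them Klf1 and Alas2, had no count in ILC1/3P, and 7 had none in CLP. Mast cell and basophil markers summed to 45.8 to 81.3 CPM in CLP and 204 to 296 CPM in ILC1/3P. Of these Cpa3, carboxypeptidase A3, made up 175 and 229 CPM in ILC1/3P, and its call was lost with no filter on low counts. In ILC1/3P 9 of 13 markers, among them Fcer1a, Ms4a2 and Gata2, had no count. In CLP 9 of 13 had none as well, among them Fcer1a and Ms4a2 but not Gata2. In the myeloid list, Mpo, the granule peroxidase, was at 676, 406 and 417 CPM in the CLP libraries and 0.156 and 0 CPM in the ILC1/3P libraries and Lyz2, lysozyme, at 106, 153 and 119 CPM in the CLP libraries and 37.1 and 39.3 CPM in the ILC1/3P libraries. Endothelial and stromal markers summed to 164 to 173 CPM in CLP and 307 to 376 CPM in ILC1/3P. In ILC1/3P this was mostly Vim (1.43 ± 0.25 (SE), not called with library size only or on the FPKM scale). All 4 tested members were called by edgeR, against 24.5% of all genes, 2 higher and 2 lower. Of the 16 in the table, 9 had no count in CLP and 11 none in ILC1/3P. Dendritic cell markers summed to 349 to 637 CPM in CLP and 162 to 197 CPM in ILC1/3P. Of 11 tested, 2 were higher and 6 lower (72.7% called, against 24.5% of all genes). Hepatocyte markers summed to 92.4 to 110 CPM in CLP and 88.4 to 177 CPM in ILC1/3P, overlapping between groups. Of 8 tested, 1 was higher and 2 lower (37.5% called, against 24.5% of all genes). Alb had no count in ILC1/3P. Megakaryocyte markers summed to 68.4 to 123 CPM in CLP and 52.0 to 139 CPM in ILC1/3P, which also overlapped. Single members differed in both directions, with 2 of 6 tested higher and 2 lower (66.7% called, against 24.5% of all genes). The part of such cells in the results was not tested.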

How the data were processed

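The members of the comparison and the gene lists were chosen with earlier results of these data known. Deposited values were raw read counts per gene and, in a separate set of columns, FPKM, both made by the authors on build mm10, per the submitters' processing notes. Libraries were made with a SMARTer Ultra Low kit, per the labels' protocols, and no molecular identifiers are described, so that floors and intervals hold for counting error alone. Aligner, counter, gene annotation and strandedness were not given in the sources used here. Of the value columns, 0 could not be matched to a library. The third population of the series, 3 libraries, entered only 1 alternative.

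Counts of the 5 libraries, grouped by their labels, were filtered (filterByExpr), scaled by TMM and tested with edgeR 4.0.16 (quasi-likelihood, robust) in R 4.3.3, with Benjamini-Hochberg adjustment over all 12362 genes and a threshold of 0.05. The fit had 3 residual degrees of freedom and a biological coefficient of variation of 0.613. Each SE was derived from the test, as the absolute log2 fold change divided by the square root of its quasi-likelihood F statistic. CPM are counts per 1000000 of the library size times its TMM factor. FPKM values served 1 alternative and the between-gene level of Tmsb4x. The fit was tested on simulated data. A group at 0 was set to a floor of 3 pooled counts. With 1 to 3 pooled counts, a ratio with an exact 95% interval is given. Transcript lengths came from GENCODE M21 (12322 tested genes matched by ID) and promoters from RefSeq GRCm38.p6 (8868 tested genes matched by symbol). Motifs were searched in the 250 bases before the start. Python 3.11.15 with pandas 2.3.3 and matplotlib 3.10.9 made the lists and plots. Alternatives were library size only, DESeq2 1.42.0 and its size factors, limma 3.58.1 (voom, and log2(FPKM + 1)), no filter, a stricter filter of 10 counts in every library of a group, all 8 libraries in 1 fit, a replicate block, each library left out, and a transcript length offset added after seeing the data.

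Genes were named by a rule. Per direction, the first step took the 8 called genes outside the lineage lists with the largest fold. These had 20 CPM or more in the higher group and no overlap. The second took the 8 with the smallest p among those with 10 counts in each library. The third took the 8 with the largest difference in mean CPM. After these came up to 4 tested members of each function list by p, and the sort markers. The last step took the 2 most abundant members of each list of other cells. Not every gene taken is reported, and every gene reported with a test value was called. Predicted genes, pseudogenes and receptor segments were left out of the first 3 steps. Named outside this rule, after their values were seen, were Xlr4b, Xlr4c, Actb, Pip4k2a, Ctsh, Hexa, Laptm5, Lipa, Tpp1, Atp6v0e, Atp6v1f, Atp6v1g1, Atp6v1h, Atp6v0a1, Atp6v1b2, Clec12a, Lgals8, S100a6, S100a1, S100a11, Cd82, Gpr65, Gpr183, Adgrg5, Adgre5, F2rl2, Cux1, Timm17a, Tomm5, Adam17, Dusp1, Dusp11, Dusp19, the markers named as having no count and the non-coding genes of the closing section. Faults in the name patterns of 2 lists were corrected after the files were read.

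Exons of these named genes overlap those of another gene, so without strand their counts are uncertain: Adam17, Adgre5, Agpat9, Anxa2, Arhgap15, B3gnt2, Cd81, Cd9, Cers2, Chchd10, Cnn3, Ctsa, Ctsb, Cux1, Dpp4, Exosc8, Gpr15, Gpr65, Hexa, Hoxa7, Hoxa9, Hspe1, Lgals8, Mmp11, Mpo, Ost4, Pik3ip1, Ranbp1, Rassf5, S100a4, Satb1, Sema4a, Serinc3, Slc39a7, Snhg5, Spry1, Tifa, Ucp2, Zfp36 and Zfp68. Results on a few genes are not reported here.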

Additional observations from a re-analysis of the deposited data

How the results depend on the processing

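The genes higher numbered 1539 and the genes lower 1494. With library size only these were 857 and 2761. DESeq2 gave 1993 higher and 2252 lower, and limma on log2(FPKM + 1) gave 1073 and 3133. Apart from the block below, the other planned settings with all 5 libraries were within 1.5 times of both counts. Leaving out 1 library gave 1070 to 1453 higher and 811 to 1960 lower, and with 1 ILC1/3P library left its spread was assumed to be that of CLP. The cause of these differences was not tested, apart from the scaling that library size only changes by construction.

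The replicate numbers 1 and 2 are shared by the groups. Deviations of same-numbered libraries from their group means correlated at -0.02 and -0.04. With 2 ILC1/3P libraries their deviations mirror each other by construction, so this cannot tell whether the numbers pair the samples. A fit with the replicate number as a block, which drops degrees of freedom, gave 980 higher and 740 lower.

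Of the 150 genes named with a test value, 147 were called in the same direction in each alternative that gave a value. There were 15 alternatives (14 for Scamp4), and no gene reversed. The named genes were mostly chosen for a small p or a large difference in these same libraries, which favours such stability. Over all called genes, 632 of 1539 higher and 536 of 1494 lower genes were as stable. Itgb7 was not called with the block (4.12, adjusted p = 0.0709) or without CLP replicate 3 (3.52), Cpa3 with no filter on low counts (7.80), or Vim with library size only (0.71) and on the FPKM scale (0.69). Of 36 list counts, 26 moved by over 1.5 times under at least 1 alternative, many of them counts of a few genes. With 2 libraries in ILC1/3P and totals of 4991939 to 8082476 counts, small differences and genes of a few CPM were not resolved.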

Other observations

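Some non-coding genes, which no list above holds, were called too, and those named here were chosen after their values were seen. AW112010, a long non-coding RNA gene of lymphocytes, was at 2.37, 4.61 and 5.18 CPM in the CLP libraries and 1575 and 2800.5 CPM in the ILC1/3P libraries (log2 fold change 9.09 ± 0.48 (SE), adjusted p = 4.11e-05 by edgeR). 1700020I14Rik was at 113, 77.0 and 94.8 CPM in CLP and 497 and 348 CPM in ILC1/3P, and Snhg5, a host gene of small nucleolar RNAs, was higher by 1.91 ± 0.32 (SE) on the log2 scale. 2610307P16Rik, at 68.5, 39.9 and 71.0 CPM in CLP, and 2310075C17Rik, at 22.3, 30.0 and 44.7 CPM, had no count in ILC1/3P and were at least 223-fold and at least 114-fold lower. All 5 genes were without overlap between the groups, as were 55.7% of all genes tested. Of 279 tested genes annotated as long intergenic non-coding RNA, 33 were higher and 20 lower, or 11.8% and 7.17% against 12.4% and 12.1% of all genes.

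Processed pseudogenes, copies of messenger RNAs that can take reads from their parent genes, had 28 of 133 tested members higher and 7 lower, 21.1% and 5.26% against 12.7% and 12.7% of 10958 protein-coding genes. Their median annotated length was 599 nucleotides, within the shortest length decile described above. In that decile 36.8% of the genes tested were higher and 5.27% lower. The parts of length and of shared reads in the pseudogene count were not tested.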
